A study of Mus musculus with 6 samples.

Results

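The genes described here are the ligands and receptors of the tumour necrosis factor (TNF) superfamily. They were taken from the array annotation as all genes whose single symbol begins with Tnfsf or Tnfrsf and a number, together with Tnf, Lta, Ltb, Ltbr, Cd40, Cd40lg, Cd27, Cd70, Fas, Fasl, Eda, Edar and Eda2r. The rule found 42 genes, 16 ligands and 26 receptors, among 19938 genes measured, each on 1 row of the table. A further row that the annotation assigns to 3 symbols, of which 2 meet the rule, was not used. Expression was measured on Affymetrix whole-transcript arrays in 3 samples of Scf-GFP+ bone marrow cells and 3 samples of whole bone marrow cells, 5000 sorted cells in each. The Scf-GFP+ cells came from young adult mice heterozygous for a green fluorescent protein knocked into the stem cell factor gene, Kitl, and were sorted in 2 passes. The whole bone marrow cells came from young adult wild-type mice, and the labels name a single sort for them. Both sets of mice were on a C57BL/6 background, and cell population, genotype and sorting changed together between the groups.

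Ligands of this superfamily are trimeric proteins, most of them anchored in the membrane, and some are cut free by proteases. Their receptors recruit TRAF adaptors and switch on the NF-kappaB transcription factors, carry a death domain that can start apoptosis, or do both. A few are decoys that bind ligand without signalling. In bone marrow the family is best known for the ligand RANKL (Tnfsf11), which drives osteoclast formation through its receptor RANK (Tnfrsf11a) and is held in check by the soluble decoy osteoprotegerin (OPG, Tnfrsf11b), and for the signals that keep B cells alive and lymphocytes activated.

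The sorted cells carried the transcripts of perivascular stroma, and all 7 genes of the stromal list passed the rule on the higher side. Kitl is 1 of them and carries the GFP used for sorting. Its higher level (mean 10.41, against 4.84 in whole marrow) was selected by the sort and is no independent evidence of identity. The others, Cxcl12, Lepr, Pdgfra, Pdgfrb, Angpt1 and Foxc1, differed by 4.43 to 6.5. The mean log2 level of the list, Kitl included, was 10.91 to 11 in Scf-GFP+ samples and 5.53 to 5.57 in whole marrow samples. Osteoblast markers were also higher, with 4 of 5 measured called (among them Ibsp, bone sialoprotein, at 7.05 and the transcription factor Sp7 at 3.14). Col1a1, the other marker of this list, differed by 0.28 ± 0.10 and was not called. The mean log2 level of the list was 9.39 to 9.65 in Scf-GFP+ samples and 6.48 to 6.56 in whole marrow samples. Of 8 endothelial markers, 2 were called higher and 1 lower, and their mean log2 level was 6.34 to 7.14 in Scf-GFP+ samples and 6.28 to 6.38 in whole marrow samples. The part of either cell type in the family results was not tested. B cell markers had a mean log2 level of 5.55 to 5.92 in Scf-GFP+ samples and 9.29 to 9.97 in whole marrow samples, and T and NK cell markers 5.42 to 5.56 and 6.80 to 7.29 in the same order of groups. The 11 neutrophil markers averaged 9.64 in Scf-GFP+ replicate 1, 5.75 and 5.93 in replicates 2 and 3, and 12.04 to 12.11 in whole marrow, so replicate 1 stood apart from its group. The samples also differed in sex-linked transcripts, with Xist at 11.50 and 11.81 in Scf-GFP+ replicates 1 and 2 and at 4.99 to 5.10 in the other 4 samples. Replicate 3 was thus the only Scf-GFP+ sample at the Xist level of whole marrow. With the Xist level in the model, a group difference rests mainly on that 1 sample. Sex and other traits of that sample cannot be told apart there. Calls that change without replicate 1 or with the Xist level in the model are given with the genes concerned, turns of sign in genes that were not called stand with the processing alternatives, and the part of either in a result was not tested.

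Each difference is the mean log2 value in Scf-GFP+ cells less that in whole marrow, given with its moderated standard error from limma (SE, n = 3 samples per group). A gene was called when its Benjamini-Hochberg adjusted p over all genes was below 0.05 and the difference was at least 2-fold. By this rule 9.01% of all genes tested were called higher and 7.89% lower, together 16.9%. Of the 42 family members, 4 were called higher in Scf-GFP+ cells (Tnfrsf19, Tnfrsf18, Edar and Eda) and 7 lower (Tnf, Ltb, Tnfsf9, Tnfrsf14, Cd27, Tnfrsf13c and Tnfsf13b), which is 26.2% of the family. The median difference was -0.07 over the family and -0.08 over all genes tested. Another 5 members (Ltbr, Tnfsf11, Tnfsf14, Tnfrsf1b and Cd40) passed the adjusted p without reaching 2-fold, and 27.0% of all genes passed it with or without that fold. That share includes the called genes, so it is not the background for these 5 members alone. Of all 19938 genes, 2023 passed the adjusted p without reaching 2-fold. The groups did not overlap for 8 members that lay higher and 12 that lay lower in Scf-GFP+ cells (47.6%), against 45.4% of all genes, of which 19.0% lay higher and 26.4% lower. All family differences lay between -2.47 and 2.48, whereas differences over all genes reached -6.45 and 7.05. In such bulk samples a lower value can come from fewer cells of a type or from less RNA per cell, and these cannot be told apart.

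**Figure D1:**
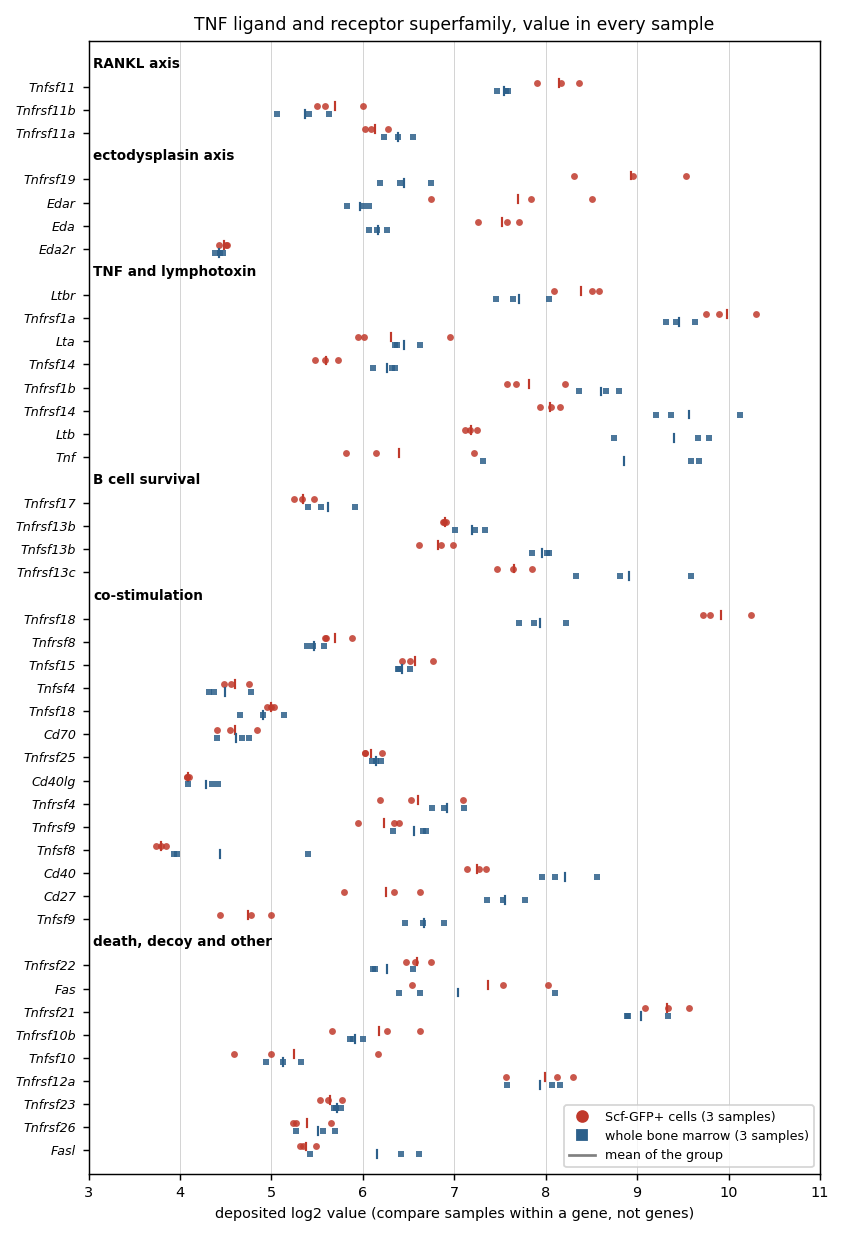
Deposited log2 value (x axis) of each of the 42 family members (rows, grouped by role) in 3 Scf-GFP+ samples (red circles, upper line of each row) and 3 whole bone marrow samples (blue squares, lower line), with short vertical bars at the group means. The groups are separated for Tnfrsf19, Tnfrsf18, Eda, Tnfsf9 and Ltb, while Fas and Tnf spread widely within both groups.

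**Figure D2:**
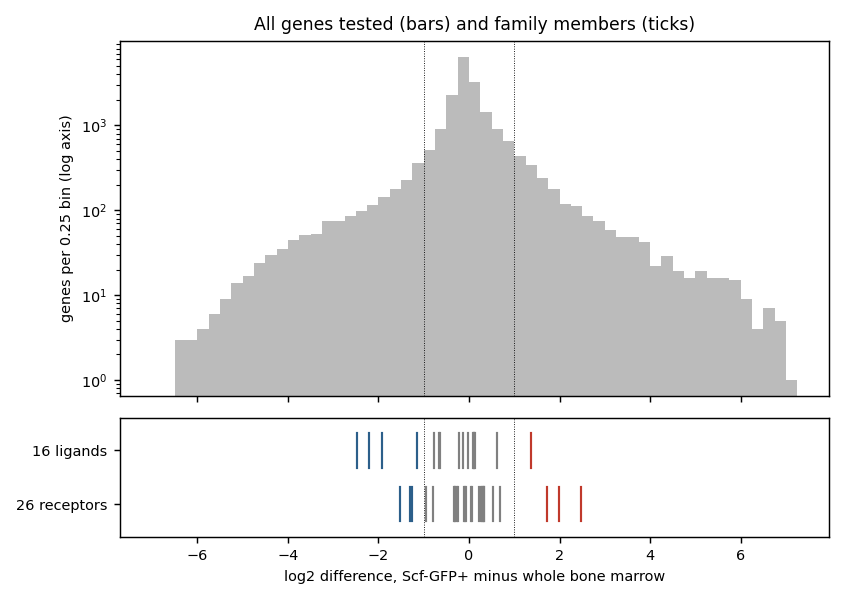
Number of genes (log axis) by log2 difference, Scf-GFP+ minus whole bone marrow, in bins of 0.25 for all 19938 genes tested, with each of the 16 ligands and 26 receptors as a tick below, red for called higher, blue for called lower and grey for not called. Dotted lines mark 2-fold, and all family members lie within the middle part of the range of all genes, between -2.47 and 2.48.

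The 3 genes of the RANKL axis did not reach a 2-fold difference. Tnfsf11, the ligand RANKL that osteoclast precursors need, measured 8.36, 8.17 and 7.90 in Scf-GFP+ cells, against 7.56, 7.47 and 7.59 in whole marrow. All Scf-GFP+ values lay above all whole marrow values, but the difference was only 0.61 ± 0.14 SE, or 1.52-fold (95% confidence interval 0.27 to 0.94, limma adjusted p = 0.0198), and it did not pass the fold threshold. With the Xist level in the model the difference, then resting mainly on Scf-GFP+ replicate 3, was 0.37. Tnfrsf11b, the decoy osteoprotegerin, measured 5.59, 5.50 and 6.00 in Scf-GFP+ cells, against 5.63, 5.41 and 5.06 in whole marrow. These groups overlapped, and the difference of 0.33 ± 0.20 was not called (interval -0.14 to 0.80, limma adjusted p = 0.271). Tnfrsf11a, the receptor RANK on osteoclast precursors, measured 6.02, 6.28 and 6.09 in Scf-GFP+ cells and 6.23, 6.38 and 6.55 in whole marrow. The difference of -0.25 ± 0.13 was not called either (interval -0.57 to 0.06, limma adjusted p = 0.208). The intervals of all 3 genes thus lie below a 2-fold difference of the array values in either direction. Tnfrsf11b lay close to the lower quartile of the samples (5.193 to 5.312), a range that arrays resolve poorly. Its interval therefore does not bound the difference in transcript level.

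Genes grouped here as the ectodysplasin branch made up 3 of the 4 members called higher. Of the 4 genes in this group 75% were called, against 16.9% of all genes. Tnfrsf19 was placed in it by sequence, without a known ligand among the members. This branch is known for the formation of hair, teeth and sweat glands: the ligand ectodysplasin (Eda) acts on the receptor Edar, a splice form of it on Eda2r, and Tnfrsf19, also called Troy, is an orphan receptor related in sequence to Edar. Eda measured 7.26, 7.58 and 7.71 in Scf-GFP+ cells, against 6.26, 6.07 and 6.15 in whole marrow. The groups were well apart, with a difference of 1.36 ± 0.14 (2.56-fold, limma adjusted p = 0.000653), and Eda was called in every alternative except the 4-fold threshold. Eda lies on the X chromosome, and its value in Scf-GFP+ replicate 3, which lacked Xist signal, was the highest of the 6. Edar measured 7.84, 6.74 and 8.5 in Scf-GFP+ cells and 6.07, 6.00 and 5.83 in whole marrow. All Scf-GFP+ values were higher, but they spread over more than 3-fold, and the difference of 1.72 ± 0.41 (3.31-fold, limma adjusted p = 0.0223) did not hold when Scf-GFP+ replicate 1 was left out (adjusted p = 0.0682) or any of whole marrow replicates 1, 2 and 3 (adjusted p = 0.0605, 0.0621 and 0.0757), within a range of 0.00143 to 0.0757 over all alternatives. Tnfrsf19 had the largest difference of the family among genes called higher. It measured 8.95, 8.31 and 9.53 in Scf-GFP+ cells and 6.41, 6.19 and 6.75 in whole marrow, a difference of 2.48 ± 0.32 (5.57-fold, limma adjusted p = 0.00152) that kept its call in every alternative. Scf-GFP+ replicate 2 was the lowest and replicate 3 the highest of its group for both Tnfrsf19 and Edar. Eda2r measured 4.43 to 4.51 in Scf-GFP+ cells and 4.38 to 4.47 in whole marrow, which is under the lower quartile of each of the 6 samples (5.193 to 5.312), a range that arrays resolve poorly, and its difference of 0.05 ± 0.10 was not called. Edaradd, the adaptor that links Edar to NF-kappaB, measured 6.5 to 6.6 in Scf-GFP+ cells and 6.86 to 7.31 in whole marrow, a difference of -0.59 ± 0.15 (limma adjusted p = 0.0252) below the fold threshold.

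The sequences just upstream of Eda and Edar are shown because this ligand and its receptor were the only listed pair with both members called higher. They are the 250 bases before the start of each gene in RefSeq on GRCm38.p6, at chrX:99975356-99975605 on the plus strand and chr10:58675697-58675946 on the minus strand, with capitals at matches of the GC box GGGCGG on either strand.
Eda: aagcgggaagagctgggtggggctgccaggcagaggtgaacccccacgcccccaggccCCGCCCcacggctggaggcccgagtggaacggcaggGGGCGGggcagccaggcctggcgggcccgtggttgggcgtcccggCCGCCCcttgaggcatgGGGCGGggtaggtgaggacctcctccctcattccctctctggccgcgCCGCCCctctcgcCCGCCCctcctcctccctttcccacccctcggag
Edar: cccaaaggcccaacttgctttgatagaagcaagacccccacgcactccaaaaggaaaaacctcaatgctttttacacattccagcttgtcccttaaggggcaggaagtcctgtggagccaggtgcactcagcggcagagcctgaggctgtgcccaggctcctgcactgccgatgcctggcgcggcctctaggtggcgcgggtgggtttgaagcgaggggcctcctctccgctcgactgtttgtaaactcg
The Eda sequence was 75.6% G and C, with 19 CpG sites and GC boxes that in no case overlapped each other, while the Edar sequence was 58.8% G and C, with 11 CpG sites and no match. Of all 32851 promoter windows of this length, 32.7% held GGGCGG. Neither sequence held the TATA box TATAAA, present in 12.4% of all windows, or the kappaB consensus bound by NF-kappaB, present in 7.25%, both searched on both strands. Promoter windows were listed for 33 of the 42 members, 37 windows in all, of which 16 held the GC box, 7 the TATA box and 4 the kappaB consensus.

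Of the 8 TNF and lymphotoxin genes, the ligands Tnf and Ltb and the receptor Tnfrsf14 were called lower in Scf-GFP+ cells, and none was called higher. This is 37.5% called, against 16.9% of all genes. Tnf, the cytokine that names the family and is made chiefly by myeloid cells and lymphocytes, measured 6.14, 5.82 and 7.21 in Scf-GFP+ cells, against 7.31, 9.59 and 9.68 in whole marrow. The groups did not overlap, but Scf-GFP+ replicate 3 and whole marrow replicate 1 lay close to each other. The difference of -2.47 ± 0.69 (5.54-fold, limma adjusted p = 0.0395) was the largest among members called lower, and its SE was the largest of the family. The call was lost on leaving out Scf-GFP+ replicate 1 or 2 (adjusted p = 0.107 and 0.113) or whole marrow replicate 2 or 3 (adjusted p = 0.115 and 0.122) and with the Xist level in the model (-1.67, adjusted p = 0.327), within a range of 0.00416 to 0.327. Ltb, the membrane subunit of lymphotoxin, which lymphocytes make and which shapes lymphoid tissue, measured 7.17, 7.12 and 7.25 in Scf-GFP+ cells, against 8.75, 9.66 and 9.79 in whole marrow. Its difference of -2.22 ± 0.27 (4.66-fold, limma adjusted p = 0.00126) was called in every alternative. Lta, the other lymphotoxin subunit, measured 5.95, 6.01 and 6.95 in Scf-GFP+ cells and 6.62, 6.35 and 6.37 in whole marrow, and its difference of -0.14 ± 0.28 was not called. Tnfsf14, the ligand LIGHT, measured 5.48 to 5.73 in Scf-GFP+ cells and 6.11 to 6.35 in whole marrow, with no overlap, and its difference of -0.66 ± 0.12 (limma adjusted p = 0.00805) stayed below 2-fold. Monocyte and macrophage markers, which like B and T cell markers belong to cells known to make these ligands, had a mean log2 level of 6.04 to 6.53 in Scf-GFP+ samples and 8.94 to 9.09 in whole marrow samples, and their part in these results was not tested.

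Among the receptors of these ligands, Tnfrsf1a, the TNF receptor with a death domain found on most cells, measured 9.75, 9.89 and 10.30 in Scf-GFP+ cells and 9.42, 9.31 and 9.63 in whole marrow (0.52 ± 0.17, limma adjusted p = 0.0684, not called). Tnfrsf1b, the TNF receptor of leukocytes and endothelium, measured 7.58, 7.67 and 8.21 in Scf-GFP+ cells and 8.36, 8.66 and 8.80 in whole marrow. Its difference was -0.79 ± 0.20 (limma adjusted p = 0.0302), below the fold threshold, so the TNF receptors lay on opposite sides of 0 without either being called. Ltbr, the lymphotoxin beta receptor of stromal and myeloid cells, measured 8.09, 8.5 and 8.58 in Scf-GFP+ cells and 7.64, 8.03 and 7.46 in whole marrow. Every Scf-GFP+ value lay above every whole marrow value, but the difference of 0.68 ± 0.20 (1.6-fold, limma adjusted p = 0.0458) was below the fold threshold. Tnfrsf14, the receptor HVEM of leukocytes, was called lower: it measured 8.06, 8.15 and 7.94 in Scf-GFP+ cells, against 9.20, 10.12 and 9.37 in whole marrow (-1.52 ± 0.24, 2.86-fold, limma adjusted p = 0.00421), and kept the call in every alternative except the 4-fold threshold.

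Ltb, Tnf and Lta are direct neighbours in the RefSeq gene order, and their upstream sequences are shown because Ltb and Tnf were called lower while Lta was not. The 250 bases lie on GRCm38.p6 at chr17:35194257-35194506 on the plus strand, chr17:35202008-35202257 on the minus strand and chr17:35205352-35205601 on the minus strand. Capitals mark the kappaB consensus in Ltb, a GC box on the other strand and a TATA box, TATAAA, in Tnf, and a TATA box alone in Lta.
Ltb: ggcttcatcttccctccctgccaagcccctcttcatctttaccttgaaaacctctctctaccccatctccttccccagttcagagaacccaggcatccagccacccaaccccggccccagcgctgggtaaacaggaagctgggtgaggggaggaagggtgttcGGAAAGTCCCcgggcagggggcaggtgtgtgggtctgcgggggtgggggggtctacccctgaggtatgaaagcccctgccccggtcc
Tnf: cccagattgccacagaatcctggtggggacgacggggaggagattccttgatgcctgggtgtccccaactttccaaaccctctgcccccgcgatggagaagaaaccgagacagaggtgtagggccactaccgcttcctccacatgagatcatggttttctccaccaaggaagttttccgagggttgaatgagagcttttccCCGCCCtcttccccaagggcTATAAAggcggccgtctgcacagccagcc
Lta: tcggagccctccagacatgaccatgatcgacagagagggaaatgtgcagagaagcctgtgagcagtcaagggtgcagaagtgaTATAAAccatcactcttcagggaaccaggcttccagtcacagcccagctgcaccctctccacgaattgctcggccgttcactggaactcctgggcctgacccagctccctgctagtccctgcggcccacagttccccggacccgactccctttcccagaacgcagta
The kappaB match in Ltb, GGAAAGTCCC, spans bases 87 to 78 before the start and reads along the other strand. The TATA box spans bases 29 to 24 before the start in Tnf and 167 to 162 in Lta. None of the marked motifs overlapped another. The windows of Tnf and Lta held no kappaB match, which says only that these letters are not in the 250 bases shown.

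Of the family's 4 B cell survival genes, 2 were called lower in Scf-GFP+ cells and 0 higher. This is 50% called, against 16.9% of all genes. Tnfsf13b, the ligand BAFF that mature B cells need, measured 6.85, 6.61 and 6.99 in Scf-GFP+ cells, against 8.01, 7.85 and 8.03 in whole marrow. The groups were more than 2-fold apart, with a difference of -1.14 ± 0.13 (2.21-fold, limma adjusted p = 0.00102) that became -0.96 with the Xist level in the model, just short of 2-fold. Tnfrsf13c, the BAFF receptor of B cells, measured 7.85, 7.47 and 7.64 in Scf-GFP+ cells, against 9.59, 8.33 and 8.81 in whole marrow. Its difference of -1.26 ± 0.31 (2.39-fold, limma adjusted p = 0.0252) rested in part on whole marrow replicate 1, the sample with the highest mean of the 7 B cell markers (9.97, against 9.29 and 9.73 in the others), and was -0.92 without it. The call was also lost without Scf-GFP+ replicate 2 or 3 (adjusted p = 0.0772 and 0.0639), without whole marrow replicate 3 (0.0665) and with the Xist level in the model (0.152), within a range of 0.0107 to 0.152. Tnfrsf13b, the receptor TACI, measured 6.88 to 6.91 in Scf-GFP+ cells and 7.01 to 7.33 in whole marrow, and Tnfrsf17, the plasma cell receptor BCMA, 5.25 to 5.47 and 5.40 to 5.91 in the same order. Their differences of -0.30 ± 0.12 and -0.27 ± 0.16 were not called. All 7 measured B cell markers were called lower in Scf-GFP+ cells, and their part in these results was not tested.

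Of 14 ligands and receptors known mainly for co-stimulation of lymphocytes, Tnfrsf18 was called higher and Tnfsf9 and Cd27 were called lower. This is 21.4% called, against 16.9% of all genes. Tnfrsf18, the receptor GITR of regulatory T cells, measured 9.72, 9.80 and 10.24 in Scf-GFP+ cells, against 7.87, 7.71 and 8.22 in whole marrow. The difference was 1.99 ± 0.19 (3.97-fold, limma adjusted p = 0.000454), the lowest Scf-GFP+ value lay well above the highest whole marrow value, and the call was lost only at 4-fold. Of the 9 measured T and NK cell markers, 4 were called lower in Scf-GFP+ cells (Cd3d at -5.24, Cd2 at -4.37, Cd3g at -2.34 and Il2rb at -1.19) and none higher. The other 5 (Cd3e, Cd8a, Cd4, Ncr1 and Klrb1c) differed by -0.59 to 0.11 and were not called, and the list's median difference was -0.59. Tnfrsf4, the receptor OX40 of activated T cells and the direct neighbour of Tnfrsf18 in the RefSeq gene order, measured 6.19, 6.53 and 7.09 in Scf-GFP+ cells and 6.76, 7.11 and 6.89 in whole marrow, and its difference of -0.32 ± 0.24 was not called. The ligand of Tnfrsf18, Tnfsf18, measured 4.95 to 5.03 in Scf-GFP+ cells and 4.66 to 5.14 in whole marrow, under the lower quartile of each sample in both groups.

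Tnfsf9, the ligand 4-1BBL of antigen-presenting cells, measured 4.44, 5.00 and 4.78 in Scf-GFP+ cells, against 6.89, 6.46 and 6.66 in whole marrow (-1.93 ± 0.18, 3.81-fold, limma adjusted p = 0.000409). These groups were far apart, though the gene was among those removed when dim genes were filtered out. Cd27, a receptor of lymphocytes and blood progenitors, measured 5.79, 6.34 and 6.62 in Scf-GFP+ cells, against 7.36, 7.53 and 7.77 in whole marrow (-1.30 ± 0.23, 2.47-fold, limma adjusted p = 0.00640), and lost its call only with the Xist level in the model (-0.95, adjusted p = 0.0769) or at 4-fold. Cd40, a receptor of B cells and other antigen-presenting cells, lay at the fold threshold. It measured 7.35, 7.27 and 7.14 in Scf-GFP+ cells and 8.10, 7.96 and 8.56 in whole marrow, and its difference of -0.95 ± 0.17 (1.94-fold, limma adjusted p = 0.00735) became a call without Scf-GFP+ replicate 1 (-1), without whole marrow replicate 1 or 2 (-1.01 and -1.08) and with the Xist level in the model (-1.07), at adjusted p of 0.00442 to 0.0403 over all alternatives. The remaining genes of this set, Tnfsf8, Tnfrsf9, Tnfrsf4, Cd40lg, Tnfrsf25, Cd70, Tnfsf18, Tnfsf4, Tnfsf15 and Tnfrsf8, differed by -0.64 to 0.22 and were not called. Cd40lg, Cd70, Tnfsf4, Tnfsf8 and Tnfsf18 had both group means under the lower quartile of each sample. Tnfsf8, the ligand of CD30, measured 5.40 in whole marrow replicate 3 and 3.74 to 3.97 in the other 5 samples.

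None of the 9 death, decoy and remaining genes was called, against 16.9% of all genes. For all 9 the groups overlapped, while 45.4% of all genes had no overlap. Fas, the death receptor that Fas ligand engages, measured 7.53, 8.02 and 6.54 in Scf-GFP+ cells and 6.39, 8.10 and 6.63 in whole marrow. The replicates of both groups spread over more than 2-fold, and the difference of 0.32 ± 0.55 had an interval of -0.98 to 1.63 (limma adjusted p = 0.705), which takes in a 2-fold higher level. Fasl, the ligand, measured 5.31, 5.34 and 5.49 in Scf-GFP+ cells and 5.42, 6.61 and 6.42 in whole marrow. Its difference of -0.77 ± 0.30 (limma adjusted p = 0.117) became a call without whole marrow replicate 1 (-1.13, adjusted p = 0.00289, within a range of 0.00289 to 0.424). Tnfsf10, the death ligand TRAIL, measured 6.17, 4.99 and 4.59 in Scf-GFP+ cells and 4.94, 5.13 and 5.32 in whole marrow. Scf-GFP+ replicate 1, the sample with the raised neutrophil markers, held the highest value, and the difference was 0.12 ± 0.39 with it and -0.34 without it, in neither case called. Tnfrsf10b, the death receptor of TRAIL in mice, differed by 0.26 ± 0.24, and Tnfrsf22 and Tnfrsf23, mouse decoy receptors of TRAIL, by 0.34 ± 0.16 and -0.08 ± 0.11. Tnfrsf21, a death receptor known from nerve cells, differed by 0.29 ± 0.18, Tnfrsf26, a mouse receptor next to the decoys, by -0.12 ± 0.17, and Tnfrsf12a, the receptor Fn14 induced by growth factors, by 0.06 ± 0.24.

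**Figure D3:**
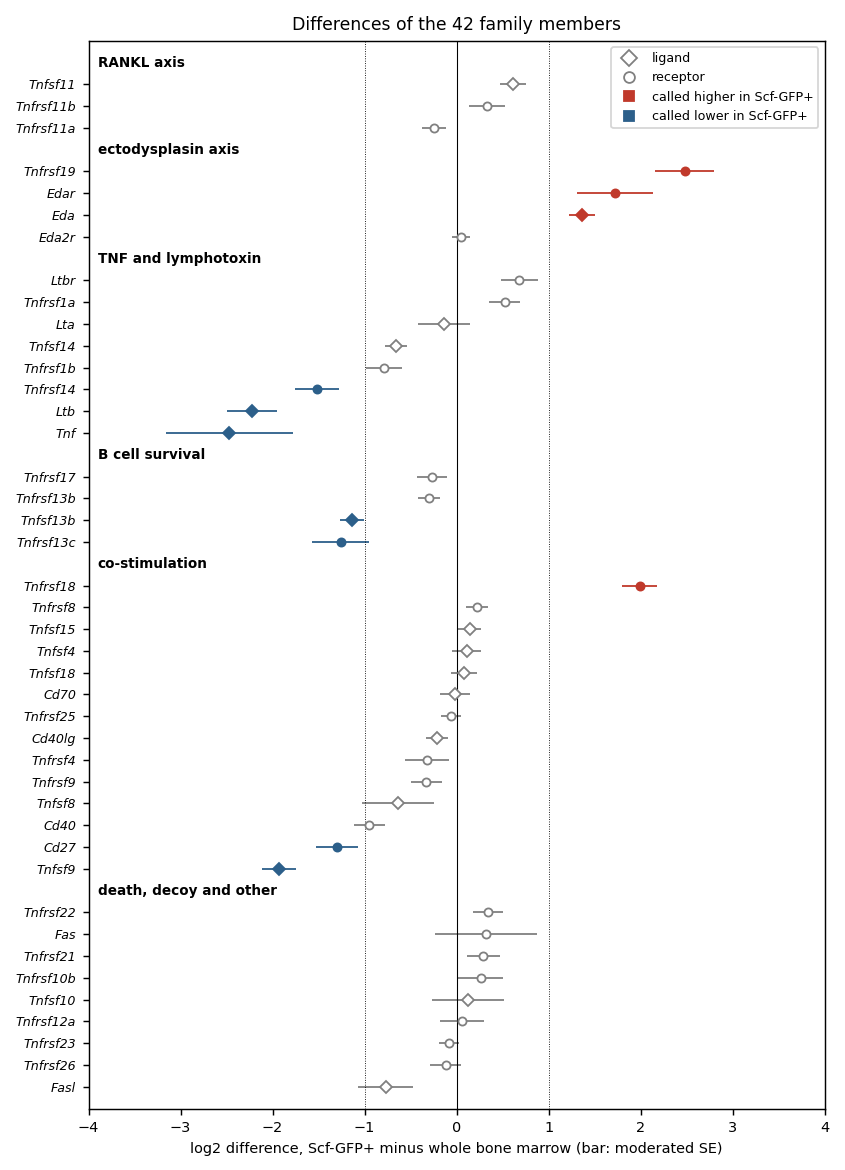
Log2 difference, Scf-GFP+ minus whole bone marrow, of the 42 family members (diamonds, ligands; circles, receptors) with the moderated SE as a bar, filled red where called higher, filled blue where called lower and open where not called. Dotted lines mark 2-fold; 3 of the 4 members called higher stand in the ectodysplasin group, and no member of the RANKL group or of the death and decoy group is called.

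Set side by side as known ligand and receptor pairs, both members of which were measured, the family gave 26 pairs, in which a gene with several partners appears more than once. Eda with Edar was the 1 pair with both members called higher, and Tnfsf13b with Tnfrsf13c the 1 pair with both called lower. In 7 pairs only the ligand was called, in 3 only the receptor and in 14 neither, and no pair had members called in opposite directions. Of the 10 pairs with a single called member, Tnfsf18 with Tnfrsf18 and Eda with Eda2r held a gene called higher, and the others held a gene called lower. The differences of Tnf and Tnfrsf1a stood at -2.47 and 0.52, and those of Ltb and Ltbr at -2.22 and 0.68, with neither receptor called.

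**Figure D4:**
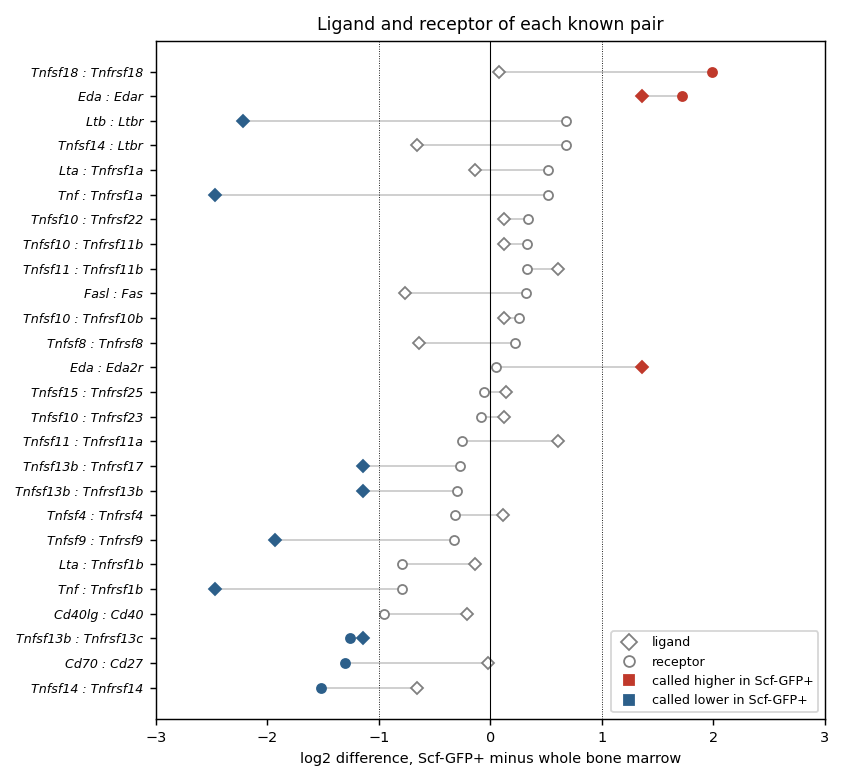
Log2 difference, Scf-GFP+ minus whole bone marrow, of the ligand (diamond) and the receptor (circle) of 26 known pairs, joined by a line and ordered by the receptor, with called genes filled red (higher) or blue (lower). Eda and Edar lie together above 1, Tnfsf13b and Tnfrsf13c together below -1, and the longest lines join Tnf to Tnfrsf1a and Ltb to Ltbr.

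Many members lie beside each other in the genome. In the RefSeq gene order 21 of the 42 members fell into 8 groups of neighbours with at most 1 other protein-coding gene between them, and no group had all its members called. Besides Ltb, Tnf and Lta, the group of Cd27, Ltbr and Tnfrsf1a joined a gene called lower (-1.30) to genes at 0.68 and 0.52 that were not called. In the group of Tnfsf9, Cd70 and Tnfsf14 the differences were -1.93, -0.02 and -0.66, with only Tnfsf9 called. The group of Tnfrsf4 and Tnfrsf18 held a gene called higher (1.99) beside a gene at -0.32. The remaining groups, Tnfsf4 with Tnfsf18 and Fasl, Tnfsf15 with Tnfsf8, Tnfrsf1b with Tnfrsf8, and Tnfrsf26 with Tnfrsf22 and Tnfrsf23, held no called gene.

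Among the intracellular signalling genes behind the receptors, the adaptor and NF-kappaB lists are set against the 16.9% of all genes that were called. Of 22 measured TRAF proteins, death domain adaptors and their regulators, Tnfaip3 was called lower and 21 were not called, which is 4.55% called. Without Scf-GFP+ replicate 3 or whole marrow replicate 2 the count was 2. Tnfaip3, the NF-kappaB-induced enzyme A20 that shuts the pathway down, measured 6.99, 7.15 and 7.20 in Scf-GFP+ cells, against 9.26, 9.18 and 9.75 in whole marrow (-2.29 ± 0.17, 4.88-fold, limma adjusted p = 0.000140). Birc2, a ubiquitin ligase bound to TRAF proteins, was 0.81 ± 0.17 higher without reaching 2-fold, and the adaptors Tradd, Fadd, Traf2 and Traf6 differed by -0.32, -0.05, 0.03 and -0.17. Of 16 measured NF-kappaB genes, 4 were called lower and none higher (25% called). These were Tab3, a kinase adaptor, at -1.72 ± 0.40, and the subunit Rel of blood cells at -1.71 ± 0.11. The others were the induced genes Nfkbiz at -1.48 ± 0.16 and Nfkbia at -1.34 ± 0.21. Tab3 lost its call without whole marrow replicate 3 (limma adjusted p = 0.0564), with the replicate number as a block (0.0577) and with the Xist level in the model (0.180), within a range of 0.0135 to 0.180. Map3k14, the kinase NIK through which Ltbr and Cd40 signal, measured 8.48 to 8.62 in Scf-GFP+ cells and 7.59 to 7.93 in whole marrow (0.77 ± 0.13, limma adjusted p = 0.00517), below the fold threshold, while Rela and Relb differed by -0.22 and 0.36 and were not called.

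Of 8 measured genes that cut ligands free or regulate that cutting, 3 were called higher and 1 lower. This is 50% called, against 16.9% of all genes. Among the proteases of this list Mmp14 was called, and Adam17, Adam10, Furin and Mmp7 were not. Mmp14, a membrane protease that can release RANKL, measured 10.24 to 10.39 in Scf-GFP+ cells, against 6.63 to 6.80 in whole marrow (3.59 ± 0.11, 12.1-fold, limma adjusted p = 3.33e-06). Timp3, an inhibitor of the TNF-releasing protease Adam17, was higher by 3.91 ± 0.53, and Rhbdf1, which helps Adam17 mature, by 1.67 ± 0.18. Rhbdf2, the relative of Rhbdf1 in myeloid cells, was lower by -1.21 ± 0.17, and Adam17 itself differed by 0.75 ± 0.28 and was not called (limma adjusted p = 0.0954).

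Receptors through which hormones and cytokines are known to raise Tnfsf11 in stromal cells were called in 71.4% of 7 measured, against 16.9% of all genes. Of these, 4 were called higher and 1 lower. These were Osmr, the oncostatin M receptor, at 5.13 ± 0.21 (35.0-fold), Pth1r, the parathyroid hormone receptor, at 2.67 ± 0.16, Vdr, the vitamin D receptor, at 2.04 ± 0.23, and Il6st, the shared chain of interleukin 6 receptors, at 1.99 ± 0.14. Il17ra was lower by -1.29 ± 0.15. The prostaglandin receptors Ptger2 and Ptger4 differed by -0.53 ± 0.12 and -0.34 ± 0.38 and were not called. Il11ra1 and Il1r1, also on this list, were not among the genes measured. Tnfsf11 itself, as given above, was higher by 0.61 and not called. On the receiving side, of 19 measured osteoclast genes 1 was called higher and 5 lower, which is 31.6% called, against 16.9% of all genes. Ctsk, the collagen-degrading cathepsin K, measured 10.82 to 11.22 in Scf-GFP+ cells, against 5.53 to 6.15 in whole marrow (5.27 ± 0.20). Which cells of the sorted samples carried Ctsk was not tested. Those lower were Car2 (-4.88 ± 0.31), Tyrobp (-4.70 ± 1.24), Mmp9 (-4.15 ± 0.46), Acp5 (-3.14 ± 0.17) and Csf1r (-2.09 ± 0.25), all of which other blood cells express too. Tyrobp measured 10.95, 6.06 and 6.32 in Scf-GFP+ cells, with the high value in replicate 1, and lost its call without Scf-GFP+ replicate 2 or 3, without any of the whole marrow samples and with the Xist level in the model (limma adjusted p from 1.79e-05 to 0.0919). Calcr, Dcstamp, Ocstamp and Oscar, more specific to osteoclasts, differed by -0.07, -0.12, 0.08 and -0.05 and were not called. Dcstamp is a dim gene here: its means, 4.95 for Scf-GFP+ samples and 5.08 for whole marrow samples, lay under the lower quartile of each sample and the means of Calcr (5.46 and 5.53) just above it, so these arrays resolve both genes poorly.

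Of 7 measured genes known as targets of the lymphotoxin beta receptor in lymphoid stroma, 2 were called higher, the chemokine Ccl19 at 4.72 ± 0.18 (11.82 to 12.21 in Scf-GFP+ cells, against 7.17 to 7.63 in whole marrow) and the adhesion molecule Vcam1 at 3.49 ± 0.20. Icam1, Relb, Cxcl13, Madcam1 and Nfkb2 differed by -0.28 to 0.48 and were not called, and the list's median was 0.36, against -0.08 over all genes. In this list 28.6% were called, against 16.9% of all genes. Ccl19 stood on 5 rows, of which the brightest was used. Ngfr and Relt, receptors of the family whose symbols fall outside the rule, differed by -0.16 ± 0.12, which was not called, and by -1.27 ± 0.20, which was called lower but not with the Xist level in the model (limma adjusted p = 0.0531, from 0.00234 to 0.0531 over the alternatives).

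**Figure D5:**
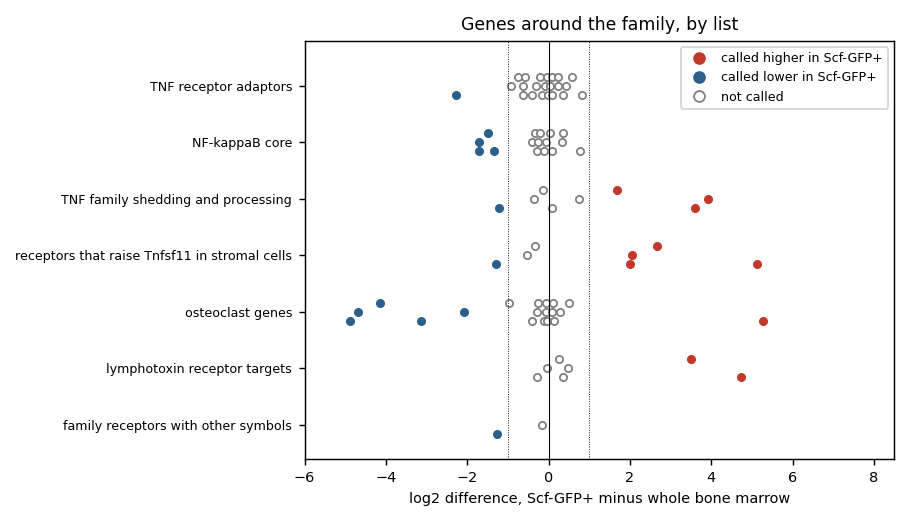
Log2 difference, Scf-GFP+ minus whole bone marrow, of each measured gene (points, spread vertically only for legibility) in 7 lists of genes around the family, filled red where called higher, filled blue where called lower and open where not called, with dotted lines at 2-fold. Adaptors and NF-kappaB genes crowd near 0 with all 5 calls on the lower side, while receptors that raise Tnfsf11 and processing genes hold 7 calls on the higher side and 2 on the lower.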

How the data were processed

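The authors deposited a table of log2 values per transcript cluster for 6 arrays of amplified RNA. RMA, affy and limma are named without versions or roles, per the submitters' processing notes, and the array annotation's build is not given in the sources used here. RMA corrects background, equalises arrays and summarises probes, so large differences are compressed and low values are no proof of absence. The number of arrays limits the precision. The column medians were 6.564 to 6.631.

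Of 28940 rows, 21789 had 1 symbol, updated through Entrez identifiers with RefSeq GRCm38.p6. The row with the highest mean stood for each of 19938 genes. Groups were compared with limma 3.58.1 (lmFit, eBayes) in R 4.3.3 on all genes without covariates, and the fit was tested on simulated data. Whether the sorted aliquots stem from different mice is not stated, and the p-values reflect only how far these samples spread, which may be technical. The members and lists were chosen with earlier results of these data known, and lists were described by counts, with no set test. The naming rule was every called member, the RANKL axis and members whose call changed with all values, others by range, and up to 4 called genes per list and direction. Motifs were searched in RefSeq promoter windows. Alternatives left out each sample, added a block or the Xist level, filtered dim genes, changed normalization, row choice, variance model or fold threshold.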

Additional observations from a re-analysis of the deposited data

How the results depend on the processing

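Over the alternatives that kept the 2-fold threshold, the Xist model aside, members called higher numbered 3 to 4 (4 with all samples) and members called lower 5 to 8 (7 with all samples), and all genes called higher numbered 1618 to 1822 without single samples and all genes called lower 1448 to 1560. With no fold threshold 2758 genes were called higher and 2635 lower. Beside the members called at 2-fold, these took in Tnfsf11 (0.61) and Ltbr (0.68) higher and Tnfsf14, Tnfrsf1b and Cd40 lower. Family ligands called higher, Eda and Tnfsf11, then numbered 2 and family receptors called lower 5. Of the lists, adaptors then had 1 gene higher and 5 lower, NF-kappaB genes 1 higher, and receptors that raise Tnfsf11 had 2 lower. At 4-fold 758 genes were called higher and 738 lower. The family then had 1 member higher, a receptor, and 2 lower, both ligands, with 0 ligands higher and 0 receptors lower, and 0 genes lower among NF-kappaB genes, processing genes, receptors that raise Tnfsf11 and family receptors with other symbols. These counts follow from the threshold itself. The adaptors called lower numbered 1 to 2 without single samples. The Xist level as a covariate, added after seeing the data, left 4 members lower, 2 of them ligands, and 0 among the receptors with other symbols. That model rests mainly on Scf-GFP+ replicate 3, the only sample of its group with a low Xist level. In that model Fas, Tnfsf10, Lta and Tnfrsf4, never called, turned sign to -0.52, -0.51, 0.51 and 0.15.

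Further turns of sign concerned genes that were not called. Without single samples the difference of Fas ranged from -0.01 to 0.85, of Tnfsf10 from -0.34 to 0.45, of Tnfsf18 from -0.04 to 0.20, of Tnfrsf12a from -0.12 to 0.28, of Cd70 from -0.13 to 0.08 and of Lta from -0.46 to 0.04. Cd70 was 0.08 after quantile normalization again. The causes were not tested. No same-numbered samples deviated together (correlations of -0.063, -0.022 and 0.066), and samples with different numbers reached 0.108. These values alone cannot show whether the numbers pair the samples. With the replicate number as a block, all genes called higher numbered 1775 and all genes called lower 1563, and family members called higher and lower stayed at 4 and 7.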
